A study of Mus musculus with 14 samples.

Results

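The 9 genes described here are the glucocorticoid receptor and its close relative, the enzymes that activate and inactivate the hormone, and genes that the receptor switches on. They were taken by symbol from the deposited expression table, which held 46855 genes after entries with damaged symbols were left out, and all 9 were found. The receptors are Nr3c1 (the glucocorticoid receptor) and Nr3c2 (the mineralocorticoid receptor), the enzymes are Hsd11b1 and Hsd11b2, and the target genes are Tsc22d3, Fkbp5, Sgk1, Zbtb16 and Klf9. RNA came from the whole ileum, the end segment of the small bowel, of wild-type C57BL/6N mice, an inbred strain. At postnatal day 14 (P14), before weaning, 4 libraries were made from mice with no stated treatment, and another 4 at day 24 (P24), around weaning. A further 3 came from mice given phosphate-buffered saline (PBS) and 3 from mice given recombinant mouse IL-22 (rmIl22), a cytokine that acts on epithelial cells. Injections were given on days 14 and 15 (rmIl22 at 0.1 µg per g of mouse, volume 100 µL), and tissue was taken on day 16. The age field of the rmIl22 samples says day 24 and that of the PBS samples day 14, so groups follow the sample titles. The labels do not say whether the replicates of a group were separate animals or litters, so p-values measure the spread between these libraries, which may be technical in part.

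Glucocorticoids (corticosterone in mice) cross the cell membrane and bind the receptor encoded by Nr3c1, which then moves to the nucleus and acts on genes that carry its response element. Nr3c2 binds the same hormone as well as aldosterone, and Hsd11b2 protects it by turning corticosterone into an inactive form, while Hsd11b1 does the reverse. In the small intestine of rodents, circulating corticosterone climbs around weaning, and glucocorticoids given early are known to hasten the change of the epithelium to its adult form. Tsc22d3 encodes GILZ, an anti-inflammatory protein, and Fkbp5 a co-chaperone that dampens the receptor. Sgk1 encodes a kinase that promotes sodium uptake, and Zbtb16 and Klf9 encode transcription factors. The hormone itself was not measured.

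The response element is a pair of inverted arms, AGAACA and TGTTCT, with 3 free bases between them. Promoter windows from RefSeq (GRCm38.p6, the same assembly as mm10), which run from 250 bases before to 50 bases after a start site, were searched for it. Windows were present for 6 of the 9 genes (Nr3c2, Hsd11b1, Sgk1, Fkbp5, Klf9 and Tsc22d3). The full element stood in 3 of 32851 windows of all genes (0.00913%), and a single arm on either strand in 6233 of them (19.0%). Of these 6 genes, Sgk1 held the full element at one of its start sites, and Sgk1 and Tsc22d3 held single arms. The windows of Nr3c2, Hsd11b1, Fkbp5 and Klf9 held neither, which says only that these letters are not in those windows. The 250 bases before the start site are shown for 3 windows because they hold arms of Sgk1 and Tsc22d3, the only genes of these 6 with any. Gene positions given below are those of the GENCODE annotation of mm10. They are written 5′ to 3′ on the gene's strand, and capitals mark the arms.
Sgk1, chr10:21993640-21993889, plus strand, start site 21993890: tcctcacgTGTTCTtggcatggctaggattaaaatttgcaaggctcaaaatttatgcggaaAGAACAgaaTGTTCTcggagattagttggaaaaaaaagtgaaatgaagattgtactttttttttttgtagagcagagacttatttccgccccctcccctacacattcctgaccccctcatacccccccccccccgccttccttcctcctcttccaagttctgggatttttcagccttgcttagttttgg
Sgk1, chr10:21991973-21992222, plus strand, start site 21992223: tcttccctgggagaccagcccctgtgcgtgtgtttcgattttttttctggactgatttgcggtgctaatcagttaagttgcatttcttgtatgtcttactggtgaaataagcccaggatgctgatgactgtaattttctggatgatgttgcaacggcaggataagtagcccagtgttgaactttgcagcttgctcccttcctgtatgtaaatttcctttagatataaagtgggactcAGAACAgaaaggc
Tsc22d3, chrX:140600523-140600772, minus strand, start site 140600522: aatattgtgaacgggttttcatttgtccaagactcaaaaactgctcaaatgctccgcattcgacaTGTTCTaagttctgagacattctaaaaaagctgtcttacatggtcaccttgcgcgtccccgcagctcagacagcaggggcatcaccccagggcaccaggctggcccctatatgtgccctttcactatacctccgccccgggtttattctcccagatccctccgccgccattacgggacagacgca

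In the first sequence the full element begins 189 bases before the start site, with another arm, 242 bases before that site, outside the element. In the second Sgk1 window the arm lies 13 bases before the start site, and in the Tsc22d3 window 185 bases before it. A window of Sgk1 at start site 21882184, not printed, also held an arm, 195 bases upstream. TPM, a level scaled for gene length and for the total of its library, was deposited per gene, so start sites of a gene cannot be told apart. A match is a description of letters and was not tested as a binding site.

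The libraries held 35648664 to 46460765 reads assigned to genes, as worked out from the steps of the TPM values. Libraries are named by the numbers in their column headers. For P14 and P24 these run differently from the labels' replicate numbers. Enterocyte markers summed to 11118 to 25674 TPM in every library, of which Apoa1 alone held 6425 to 19372 TPM. Fabp1, another of these markers, was chosen after its values were seen. It stood at 0.229 to 225 TPM at P14, 73.2 to 1570 TPM with PBS and 7.29 to 9.57 TPM at P24. In rmIl22 libraries 1, 2 and 3 it stood at 2.34, 699 and 2.32 TPM. Whole tissue was measured, so fewer cells of a type and less RNA per cell cannot be told apart. One library stood apart. The rmIl22 library 2 had a correlation across 9874 genes of 0.932 and 0.948 with the other rmIl22 libraries but 0.966 with PBS library 2, whereas all other pairs within a group reached 0.977 to 0.991. Sex, which the labels do not give, also differed between groups. By the female-specific Xist and the Y-linked Ddx3y, the 3 PBS libraries, rmIl22 library 1, P24 library 1 and P14 libraries 1 and 2 read as male, and the other 7 as female. Tsc22d3 is X-linked. The hour at which tissue was taken is not given in the sources used here.

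Between P14 and P24, Nr3c2, Hsd11b2 and Fkbp5 rose and Tsc22d3 and Klf9 fell, while Nr3c1, Sgk1 and Zbtb16 did not pass the test (limma on log2(TPM + 1), adjusted p over all genes, threshold 0.05). Hsd11b1 was not tested there, because the filter asked for 1 TPM or more in 4 libraries. That is 3 rises and 2 falls among 8 genes tested, against a background in which 58.3% of 14651 tested genes were called, 14.6% higher and 43.7% lower. The share of members called is close to that background. Over all tested genes the median log2 fold change at P24 was -0.25, and on TPM scaled to each library's median 4200 genes passed as higher and 4202 as lower. Of the 8 tested members, 3 lay wholly above and 1 wholly below the P14 libraries, where 52.4% of all tested genes had groups that did not overlap (13.0% higher, 39.4% lower).

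The injection of rmIl22 was set against PBS injection. Tsc22d3 was the single member called, and it was lower with rmIl22; 2.69% of 14456 tested genes were called, 0.443% higher and 2.25% lower. The libraries did not overlap for 4 of 9 members (1 higher, 3 lower) and for 21.1% of all tested genes (5.62% higher, 15.4% lower). PBS-injected mice at day 16 were also set against untreated mice at day 14, a contrast in which handling, injection and 2 days of age cannot be told apart. Tsc22d3 and Sgk1 rose, and the other 7 members did not pass, against 4.33% of 14782 genes called (2.92% higher, 1.41% lower). Without overlap, 3 of 9 members were higher and 0 lower, beside 9.02% and 7.56% of all tested genes. One of the 3, Hsd11b1, passed the filter only through its PBS libraries and so had to differ. This contrast shares its PBS libraries with the rmIl22 comparison and its P14 libraries with the age comparison, so their values are not independent of each other.

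**Figure D1:**
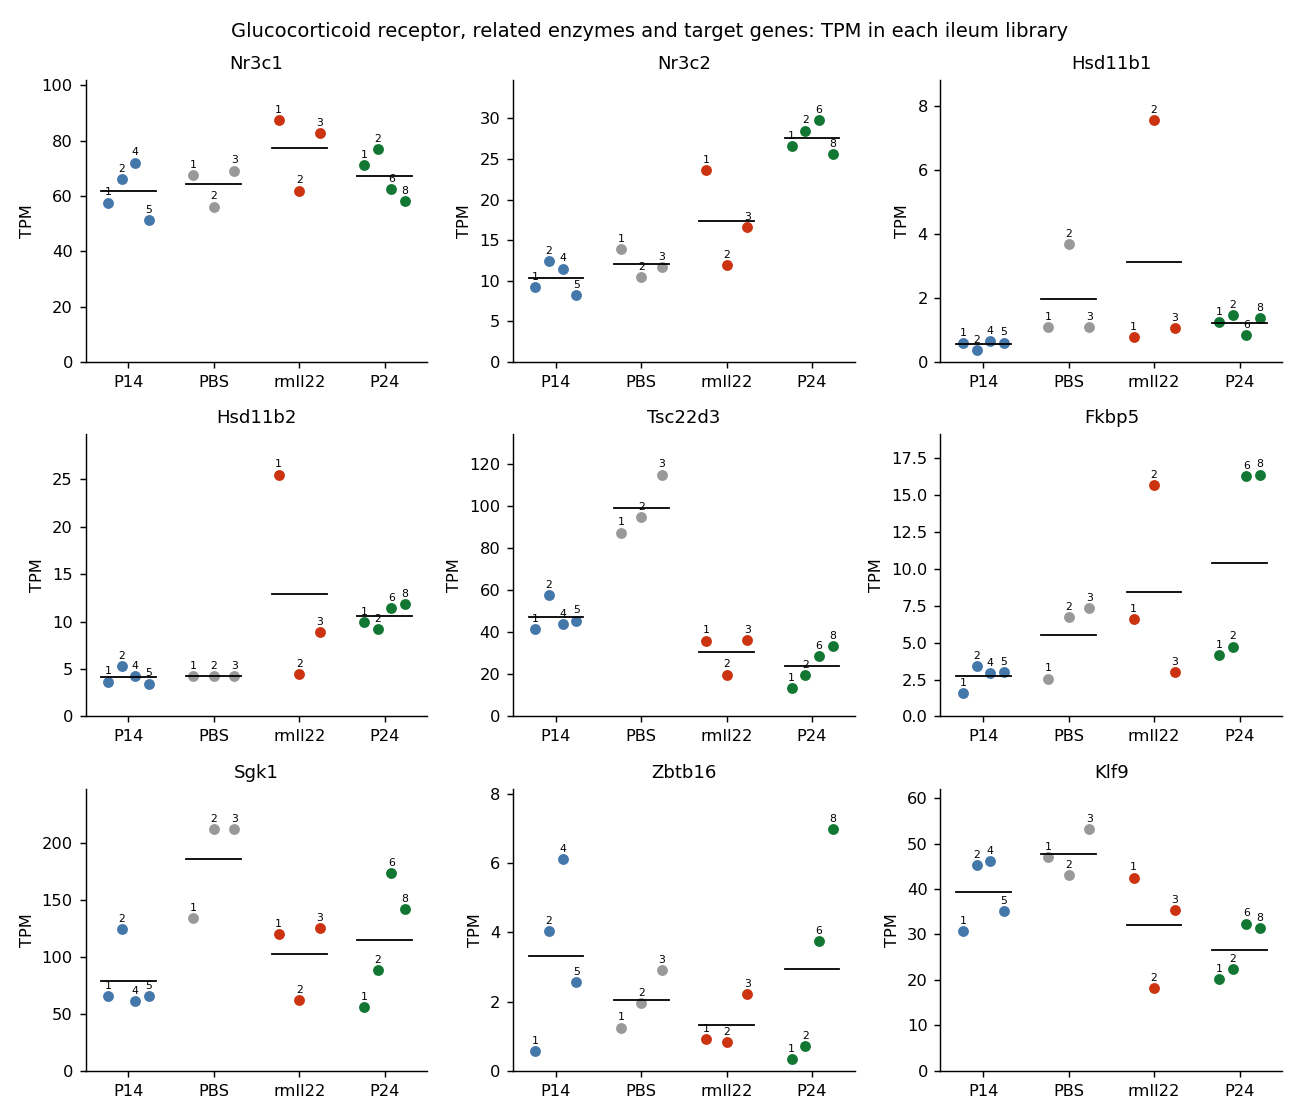
TPM (vertical axes, from 0) of each of the 9 genes in each library of the 4 groups; points are libraries with their column numbers and lines are group means. The 3 PBS libraries stand highest for Tsc22d3 (87.4 to 115 TPM), and the 4 P24 libraries stand highest for Nr3c2 (25.6 to 29.8 TPM).

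The receptor genes differed from each other. Nr3c1 (ENSMUSG00000024431.15, protein coding, minus strand) was steady and abundant, with 57.6, 66.2, 72.0 and 51.2 TPM in P14 libraries 1, 2, 4 and 5. It stood at 71.2, 76.9, 62.4 and 58.2 TPM in P24 libraries 1, 2, 6 and 8, at 67.5, 56.1 and 69.1 TPM with PBS, and at 87.4, 61.9 and 82.7 TPM with rmIl22. All 4 groups overlapped, with group means from 61.7 ± 9.19 TPM (SD, n = 4) at P14 to 77.3 ± 13.6 TPM (n = 3) with rmIl22. The log2 fold change was 0.12 (SE 0.13, adjusted p = 0.416) at P24 and 0.25 (SE 0.16, adjusted p = 0.556) with rmIl22. On median-scaled TPM the P24 value was 0.38 with an adjusted p of 0.0106 in limma, so the age call of Nr3c1 depends on the scaling. For Nr3c1 the authors' deposited table lists 0.46 with an adjusted p of 0.000668.

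Nr3c2 (ENSMUSG00000031618.13, chromosome 8, 76899442 to 77245012, plus strand) rose with age. It measured 9.24, 12.4, 11.5 and 8.28 TPM at P14 and 26.6, 28.5, 29.8 and 25.6 TPM at P24. Every P24 library lay above every library of the other 3 groups. The mean was 2.66-fold higher at P24 (27.6 ± 1.88 against 10.4 ± 1.93 TPM, n = 4 each), with a log2 fold change of 1.35 (SE 0.12, adjusted p = 3.68e-06). With PBS it stood at 13.9, 10.5 and 11.7 TPM, and with rmIl22 at 23.6, 11.9 and 16.6 TPM. The PBS and rmIl22 libraries overlapped, and the difference did not pass (log2 fold change 0.45, SE 0.23, adjusted p = 0.443). The effect of rmIl22 was smaller than that of age by 0.89 log2 units (SE 0.26), and this difference itself passed (adjusted p = 0.0261; 23.8% of 15702 genes were called in this test, 6.51% in this direction). It no longer passed with no expression filter (0.0559), nor without P24 library 6 (0.0507), PBS library 1 (0.0702) or rmIl22 library 3 (0.0542).

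On the TPM scale Nr3c1 exceeded Nr3c2 in every library, and the ratio of the receptor genes narrowed with age. Nr3c1 stood 5.32 to 6.26 times above Nr3c2 at P14 and 2.09 to 2.70 times above it at P24, with no overlap. The PBS ratios were 4.84, 5.35 and 5.90, and the rmIl22 ratios were 3.71, 5.19 and 4.99. The lowest injected value, in rmIl22 library 1, lay between the P24 and P14 ranges.

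Of the enzymes, Hsd11b2 (ENSMUSG00000031891.6, chromosome 8, 105518755 to 105523988, plus strand), which inactivates corticosterone, rose with age. It measured 3.67, 5.31, 4.22 and 3.45 TPM at P14 and 9.96, 9.19, 11.4 and 11.8 TPM at P24. The groups did not overlap, the means differed 2.54-fold (4.16 ± 0.831 and 10.6 ± 1.20 TPM) and the log2 fold change was 1.17 (SE 0.13, adjusted p = 1.78e-05). The PBS libraries lay together at 4.28, 4.28 and 4.25 TPM, within the P14 range. The rmIl22 libraries were spread over 25.5, 4.46 and 8.86 TPM, all above PBS, and the lowest was library 2, the one that stood apart. The test did not pass (log2 fold change 1.09, SE 0.50, adjusted p = 0.367). Without rmIl22 library 2 the log2 fold change was 1.62 (adjusted p = 0.0306), and with sex as a term it was 2.33 (adjusted p = 0.0362). The authors' deposited table, whose rows all have an adjusted p under 0.01, lists Hsd11b2 with a log2 fold change of 1.59 (adjusted p = 0.00125).

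Hsd11b1 (ENSMUSG00000016194.14, chromosome 1, 193221634 to 193264075, minus strand), which regenerates active hormone, was the lowest of the 9 genes in most libraries. It had 35 to 63 reads at P14 (0.597, 0.368, 0.664 and 0.604 TPM) and 80 to 127 reads at P24 (1.25, 1.47, 0.828 and 1.37 TPM). The groups did not overlap, with P24 the higher, and an exact two-sided permutation test of the difference of 0.671 TPM gave p = 0.0286, the smallest that 70 regroupings allow. With any 1 of the 8 libraries left out p was 0.0571, the smallest that 3 against 4 libraries allow, so the call was lost in each case, while the difference stayed between 0.59 and 0.805 TPM. With PBS it stood at 1.09, 3.68 and 1.10 TPM and with rmIl22 at 0.767, 7.56 and 1.05 TPM. The high values came from library 2 in both injected groups, with 362 and 645 reads. The genes most like Hsd11b1 over the 14 libraries, by Pearson correlation of log2(TPM + 1), were Serpina3n (0.981) and Lcn2 (0.952), both acute-phase genes. Neither injected comparison passed in limma (adjusted p = 0.936 against PBS and 0.109 for PBS against P14), and without rmIl22 library 2 the direction against PBS was negative (log2 fold change -0.53). The rmIl22 effect minus the age effect was -0.31 (SE 0.61, adjusted p = 0.74), and without rmIl22 library 2 it was -1.04 (adjusted p = 0.0447). Macrophage markers, of which 8 of 8 were present, summed to 211 to 259 TPM at P14, 160 to 217 at P24, 279 to 348 with PBS and 226 to 285 with rmIl22. Their part in the Hsd11b1 values was not tested.

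The ratio of the activating to the inactivating gene was below 1 in 13 of 14 libraries. It ran from 0.0694 to 0.175 at P14 and from 0.0728 to 0.160 at P24, and these ranges overlapped. It was 0.254, 0.859 and 0.259 with PBS, above every untreated library. With rmIl22 it was 0.0301, 1.70 and 0.118, so the lowest and the highest of the 14 values were both in this group.

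**Figure D2:**
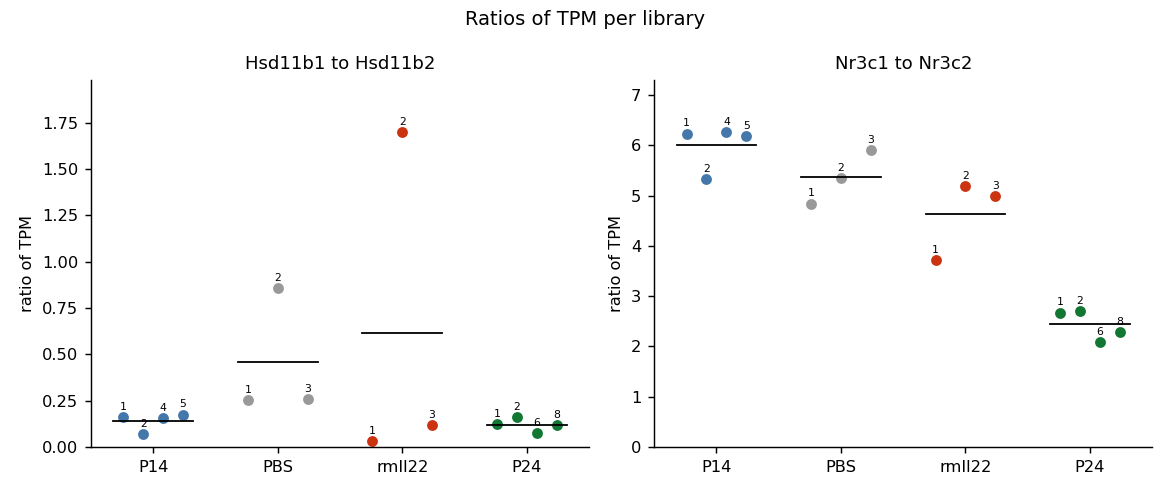
Ratio of TPM (vertical axes, from 0) of Hsd11b1 to Hsd11b2 and of Nr3c1 to Nr3c2 in each library of the 4 groups; points are libraries with column numbers and lines are group means. The Nr3c1 to Nr3c2 ratio lies at 2.09 to 2.70 at P24, below all other libraries.

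Among the target genes, Tsc22d3 (ENSMUSG00000031431.13, chromosome X, 140539528 to 140600659, minus strand) differed in all 3 comparisons. Untreated P14 libraries had 41.4, 57.6, 43.9 and 45.6 TPM. The PBS libraries had 87.4, 94.7 and 115 TPM, all above every other library of the series. The rmIl22 libraries had 36.0, 19.9 and 36.3 TPM, and the P24 libraries 13.4, 19.7, 28.6 and 33.6 TPM. Both of these groups lay below the whole P14 range and overlapped each other. The mean with rmIl22 (30.7 ± 9.40 TPM, n = 3) was 0.311 of that with PBS (98.9 ± 14.0 TPM, n = 3), a log2 fold change of -1.69 (SE 0.24, adjusted p = 0.0192). The authors' deposited table gave -1.67 (adjusted p = 4.58e-08). The call was lost without PBS library 1 (adjusted p = 0.0853), 2 (0.074) or 3 (0.134), with no expression filter (0.0645) and with sex as a term (-1.42, 0.103), over a range of 0.0014 to 0.134. In the male libraries alone, rmIl22 library 1 stood at 36.0 TPM against 87.4 TPM or more with PBS. That is 1 rmIl22 library. The rmIl22 libraries 2 and 3 read as female and no PBS library did, so for them injection and sex cannot be told apart.

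With PBS against P14 the log2 fold change of Tsc22d3 was 1.06 (SE 0.14, adjusted p = 0.00228). That call was lost in the fit of all 14 libraries (adjusted p = 0.0535, the upper end of a range from 0.00111). At P24 against P14 it was -1.02 (SE 0.23, adjusted p = 0.00274), and it passed in all 14 alternatives. The rmIl22 effect minus the age effect was -0.67 (SE 0.38) and did not pass (adjusted p = 0.208).

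Sgk1 (ENSMUSG00000019970.15, chromosome 10, 21882184 to 21999903, plus strand) also had its highest mean with PBS. It measured 134, 212 and 212 TPM there, against 65.8, 124, 61.4 and 65.4 TPM at P14. The groups did not overlap, and the log2 fold change was 1.25 (SE 0.24, adjusted p = 0.0151). It no longer passed without PBS library 2 (0.0513) or 3 (0.0574), with no expression filter (0.122), in the fit of all 14 libraries (0.0962) or with sex as a term (0.0547), while the direction held in all 13 alternatives. The rmIl22 libraries stood at 120, 62.3 and 125 TPM, all below PBS, yet the test did not pass (log2 fold change -0.89, SE 0.30, adjusted p = 0.208). The P24 libraries were spread over 55.9, 88.2, 173 and 142 TPM and enclosed the whole P14 range (log2 fold change 0.47, SE 0.32, adjusted p = 0.231). Without P24 library 1 the P24 value was 0.77 (adjusted p = 0.0321), and the authors' deposited table gave 0.85 (adjusted p = 0.0196). The rmIl22 effect minus the age effect was -1.36 (SE 0.52, adjusted p = 0.0736), and it passed on median-scaled TPM (-1.56, 0.042), with voom (-1.57, 0.0362), and without P14 library 2 (-1.59, 0.0426) or P24 library 1 (-1.66, 0.0251).

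Fkbp5 (ENSMUSG00000024222.17, chromosome 17, 28399094 to 28517527, minus strand) rose with age, unlike Tsc22d3. It had 1.58, 3.40, 2.93 and 3.00 TPM at P14 and 4.14, 4.74, 16.3 and 16.4 TPM at P24. The groups did not overlap, but P24 libraries 6 and 8 stood far above libraries 1 and 2 (log2 fold change 1.41, SE 0.38, adjusted p = 0.0083). With PBS it stood at 2.56, 6.73 and 7.36 TPM and with rmIl22 at 6.58, 15.7 and 3.00 TPM, and these overlapped (log2 fold change 0.38, SE 0.54, adjusted p = 0.838). The high rmIl22 value was again library 2, and without it the log2 fold change was -0.15. For PBS against P14 the log2 fold change was 0.75 (SE 0.28, adjusted p = 0.177). Without PBS library 1, the single PBS library inside the P14 range, it was 1.14 (adjusted p = 0.0173).

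Klf9 (ENSMUSG00000033863.2, chromosome 19, 23141226 to 23168134, plus strand) fell with age by a small margin. It had 30.8, 45.2, 46.2 and 35.1 TPM at P14 and 20.2, 22.4, 32.4 and 31.4 TPM at P24. The ranges overlapped (log2 fold change -0.56, SE 0.17, adjusted p = 0.017), and the call was lost in 7 of 14 alternatives, among them median-scaled TPM (-0.30, adjusted p = 0.139). The authors' deposited table gave -0.24 (adjusted p = 0.376). With PBS it stood at 47.0, 43.0 and 53.2 TPM, above rmIl22 (42.5, 18.2 and 35.3 TPM) without overlap, and the test did not pass (log2 fold change -0.64, SE 0.29, adjusted p = 0.352).

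Zbtb16 (ENSMUSG00000066687.5, chromosome 9, 48654297 to 48836222, minus strand) varied widely within groups. It ranged from 0.580 to 6.11 TPM at P14 (70 to 640 reads), from 0.352 to 6.99 TPM at P24 (43 to 754 reads), from 1.25 to 2.92 TPM with PBS and from 0.821 to 2.23 TPM with rmIl22. No comparison passed (adjusted p = 0.665, 0.621 and 0.699 for age, rmIl22 and PBS against P14), and all groups overlapped. A gene of innate-like lymphocytes as well as a receptor target, it stood highest in P24 library 8 and P14 library 4. The 12 lymphocyte markers, all present, summed to 136 TPM in P24 library 8 but to 11.9 TPM in P14 library 4, and their part in it was not tested.

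**Figure D3:**
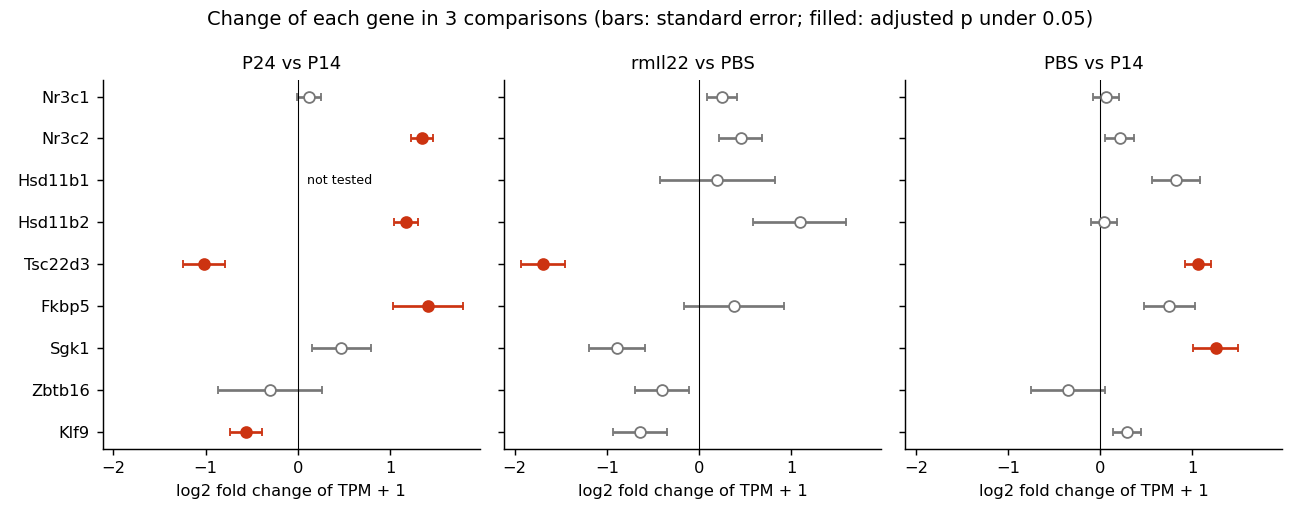
Log2 fold change of TPM + 1 (horizontal axes) of each gene in the 3 comparisons; points are estimates, bars are standard errors, and filled points have an adjusted p under 0.05. Tsc22d3 is filled in all 3 panels, at -1.02, -1.69 and 1.06.

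Within P24 the target genes split the libraries alike. Libraries 6 and 8 held the highest P24 values of all 5 target genes, and libraries 1 and 2 the lowest. Library 1 was the lowest of the 4 for each. Per1 and Klf15, both also receptor targets and chosen here after their values were seen, split the same way. Of the 29 tested genes of the list of other targets, 14 had both libraries 6 and 8 above both 1 and 2, 1 had them below, and 14 had neither. Tat was among the last, with 8.18, 16.3, 9.23 and 26.5 TPM. The same split was not counted over all tested genes, so it cannot be called particular to receptor targets. Per1 had 0.838, 1.94, 4.02 and 5.56 TPM in libraries 1, 2, 6 and 8, and Klf15 had 1.15, 1.84, 3.20 and 4.10 TPM. Dbp, a clock output gene chosen likewise, had 1.42, 1.41, 3.93 and 3.32 TPM. Arntl, a core clock gene that runs opposite to Dbp, had 33.2, 34.5, 27.1 and 29.6 TPM. The lymphocyte markers did not split that way, with sums of 145, 26.7, 23.6 and 136 TPM. Nor did the fibroblast, endothelial, adipocyte and pancreas marker sums. Smooth muscle sums did (2136, 2710, 3431 and 2924 TPM), as did neuron and glia sums (16.7, 18.4, 25.5 and 25.2 TPM). Enterocyte sums (25250, 25674, 22726 and 19021 TPM) and macrophage sums (217, 199, 160 and 193 TPM) split in reverse. Library 1 alone read as male. Nr3c1 ran the other way, with its higher P24 values in libraries 1 and 2. The part of the hour of collection and of these cell types in this pattern was not tested.

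**Figure D4:**
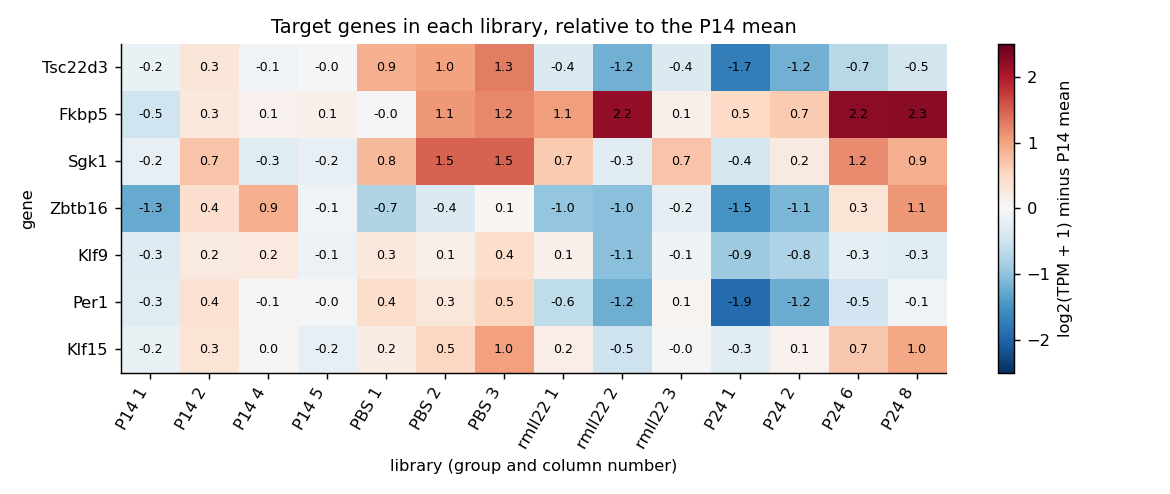
Each cell gives log2(TPM + 1) of a target gene in 1 library minus the mean of the 4 P14 libraries (columns: libraries in group order; rows: genes; red higher, blue lower). The Tsc22d3 row is positive in all PBS libraries and negative in all rmIl22 and P24 libraries, and P24 libraries 6 and 8 exceed libraries 1 and 2 in every row.

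A list of 30 other genes known to respond to glucocorticoids in various tissues showed no single direction. At P24, 9 of 29 tested rose and 10 fell (65.5% called). Over all tested genes 14.6% rose and 43.7% fell (58.3% called). The list median log2 fold change was -0.09, beside -0.25 over all genes. Tat, a liver enzyme of tyrosine breakdown and a classic target, had the largest rise (0.0509 to 0.130 TPM from 3 to 7 reads at P14, 8.18 to 26.5 TPM from 471 to 1351 reads at P24, log2 fold change 3.75). Pck1, the first enzyme of gluconeogenesis, had the largest fall (134 to 303 TPM at P14, 9.32 to 30.3 TPM at P24, log2 fold change -3.69). With rmIl22, Tat rose (1.40 to 2.78 against 0.0194 to 0.0539 TPM, the latter from 1 to 3 reads, log2 fold change 1.59, adjusted p = 0.0167). Pck1 fell (97.4 to 141 against 358 to 879 TPM, -2.20, adjusted p = 0.023), and the other 27 tested did not pass in limma. Tat passed the filter of the age comparison only through its P24 libraries, and that of the rmIl22 comparison only through its rmIl22 libraries. It could therefore only come out higher in both, and its 2 calls are no result about the list. With PBS against P14 none of 28 passed in limma, with a median of 0.26 beside -0.02 over all genes. In that contrast 7 of the 28 passed with voom on the recovered reads, beside 1699 of 14782 tested genes. At an unadjusted p under 0.05 in limma there were 13. That level was not counted over all tested genes, so the 13 cannot be called particular to these targets. Ddit4, one of these 28, is named because it was the gene most like Sgk1 over the 14 libraries (Pearson correlation 0.839); it had a log2 fold change of 0.58 (adjusted p = 0.0925).

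**Figure D5:**
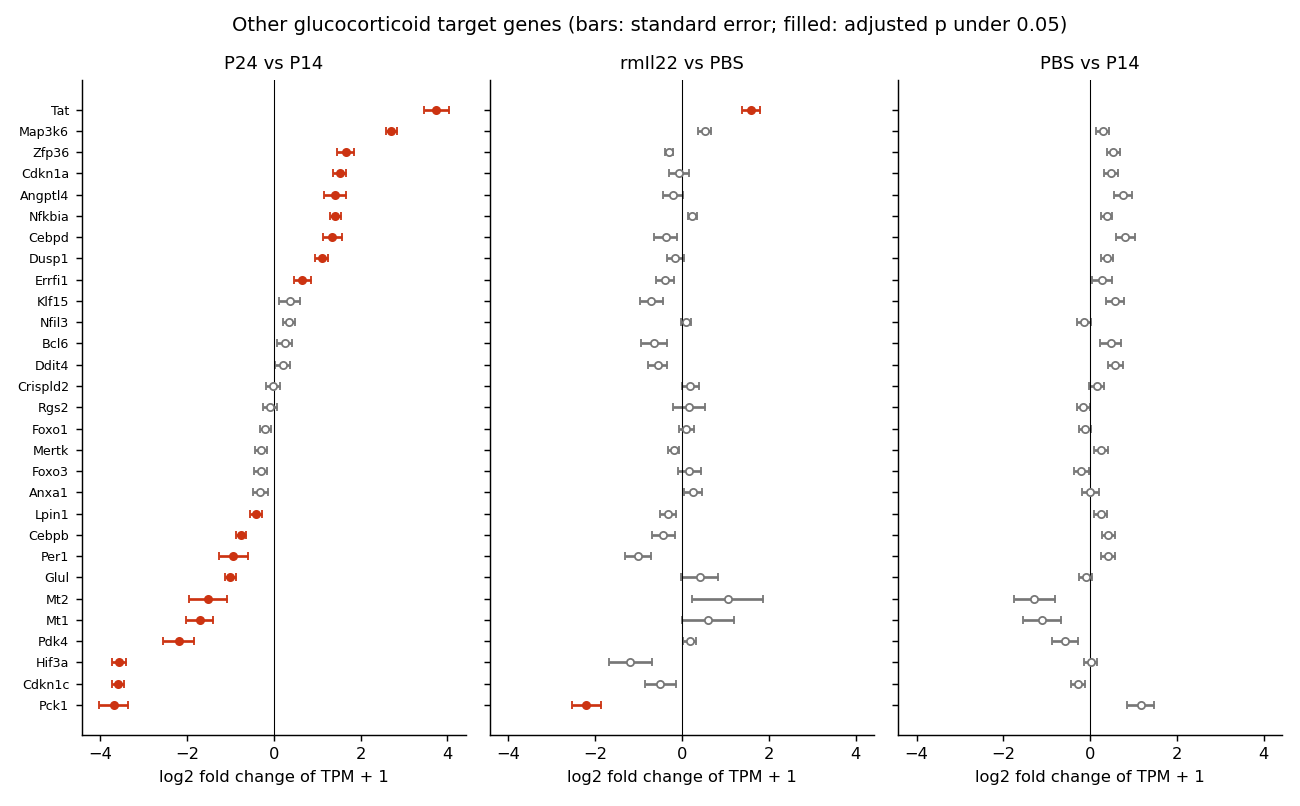
Log2 fold change of TPM + 1 (horizontal axes) of 29 other glucocorticoid target genes in the 3 comparisons, ordered by the first; points are estimates, bars are standard errors, filled points have an adjusted p under 0.05, and an empty line means not tested. The age panel has 9 filled points above 0 and 10 below, and the rmIl22 panel has 1 on each side (Tat and Pck1).

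Among genes that work with the receptor, calls at P24 were no more frequent than over all genes. Of 12 chaperone genes, 6 fell at P24, led by the heat shock protein gene Hspa8 (738 ± 74.3 to 394 ± 66.5 TPM, log2 fold change -0.92), and 1 rose, the co-chaperone gene Bag1 (136 ± 16.5 to 220 ± 7.62 TPM, 0.70). That is 58.3% of the list, beside 58.3% of all tested genes, and the list median of -0.26 was near the -0.25 of all genes. Of 12 coregulator genes, 3 fell and 0 rose at P24 (25.0% called), with a list median of -0.11. With rmIl22 no chaperone or coregulator gene passed in limma or voom, and 2 chaperone and 0 coregulator genes had an unadjusted p under 0.05. With PBS against P14 none passed in limma, and 1 chaperone gene passed with voom, beside 1699 of 14782 tested genes. There 2 chaperone genes and 1 coregulator gene had an unadjusted p under 0.05. The share of all tested genes at that unadjusted level was not counted in either comparison.

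Genes of steroid synthesis, activation and export showed changes next to the enzymes above. H6pd, which supplies the cofactor that lets the Hsd11b1 enzyme make active hormone, fell from a P14 mean of 116 ± 21.8 to a P24 mean of 12.8 ± 1.88 TPM (log2 fold change -3.07, SE 0.14, adjusted p = 8.54e-09). Its rmIl22 libraries stood at 63.3, 121 and 72.1 TPM against 124, 104 and 124 TPM with PBS. Star, which brings cholesterol into the mitochondrion for steroid synthesis, stood at 0.728 to 3.88 TPM at P14 and at 5.33, 10.4 and 11.5 TPM with PBS (log2 fold change 1.76, adjusted p = 0.0163). With rmIl22 it stood at 0.499 to 0.876 TPM (log2 fold change -2.53 against PBS, adjusted p = 0.0112). Its P24 range was 0.285 to 0.632 TPM. Cyp11b1, whose enzyme completes corticosterone, had at most 0.0303 TPM in any library and was chosen after its values were seen. Of the 16 genes of the list, 8 or 9 passed the filter on low values. At P24 1 rose and 3 fell (50.0% called, below the 58.3% of all tested genes). With rmIl22 0 rose and 2 fell (22.2% called, beside 2.69%). With PBS against P14 2 rose and 0 fell (22.2% called, beside 4.33%). Star passed the filter of the rmIl22 comparison only through its PBS libraries, so there it could only come out lower. The 22.2% with rmIl22 rests in part on it and is no result about the list.

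Genes of the sodium transport pathway of Sgk1 and the mineralocorticoid receptor moved in both directions at P24. Of 11 tested, 4 were higher and 3 lower (63.6% called, near the 58.3% of all tested genes). The sodium pump subunit gene Atp1b1 rose from 133 ± 20.3 to 364 ± 55.7 TPM (log2 fold change 1.44). Sgk3, a relative of Sgk1, fell from 12.5 ± 1.25 to 2.06 ± 0.256 TPM (-2.14), and with rmIl22 from 14.5 ± 1.30 to 7.67 ± 1.34 TPM (-0.84, adjusted p = 0.0314). With PBS against P14, 3 of 11 rose (27.3% called, beside 4.33% of all tested genes). The largest rise was of the sodium-proton exchanger gene Slc9a3 (4.25 to 15.4 TPM at P14, 27.5 to 39.6 TPM with PBS, log2 fold change 1.74, adjusted p = 0.0131). Its rmIl22 values were 13.7, 94.1 and 13.8 TPM, with library 2 far above the others. The epithelial sodium channel genes Scnn1b and Scnn1g, likewise chosen after their values were seen, stayed at or under 0.328 TPM in every library.

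Clock and immediate early genes, which follow the hour and the handling of the animal, also differed. At P24, 8 of 14 clock genes fell, led by Per2 (26.7 ± 4.19 to 4.45 ± 0.727 TPM, log2 fold change -2.34), and 2 rose, led by Arntl (1.33). Over all tested genes 43.7% fell and 14.6% rose. No clock gene passed in limma or voom with rmIl22 (4 at an unadjusted p under 0.05) or with PBS against P14 (1 at that level). The share of all tested genes at that unadjusted level was not counted. The immediate early gene Fos rose with PBS against P14 (3.58 to 21.7 TPM at P14, 52.9 to 78.0 TPM with PBS, log2 fold change 2.77, adjusted p = 0.00303) and fell with rmIl22 against PBS (20.5 to 27.3 TPM, -1.48, adjusted p = 0.0126). It was the single gene of 9 that passed in either (11.1% called, beside 4.33% of all tested genes with PBS and 2.69% with rmIl22). At P24 4 of 9 rose and 1 fell (55.6% called, beside 58.3% of all tested genes). In the injected comparisons Fos had the direction of Tsc22d3 and Sgk1, and its part in their values was not tested. At P24 Fos rose (43.8 to 141 TPM, log2 fold change 3.08, adjusted p = 9.88e-05), while Tsc22d3 fell. The Sgk1 estimate at P24 was also above 0 but did not pass in limma (log2 fold change 0.47, adjusted p = 0.231). Marker sums moved as well. The endothelial sum was 74.4 to 111 TPM at P14 and 44.6 to 55.0 at P24, the fibroblast sum 762 to 1481 and 467 to 612 TPM, and the neuron and glia sum 55.2 to 79.2 and 16.7 to 25.5 TPM. Other sums were higher at P24, the adipocyte sum at 197 to 331 against 117 to 151 TPM (4 of 5 tested markers rose and 1 fell) and the enterocyte sum at 19021 to 25674 TPM (4 of 8 rose). At P14 enterocyte markers summed to 11118 to 16465 TPM and with PBS to 18746 to 24641 TPM, and 4 of 8 rose in that contrast too. Their part in the members' changes was not tested.

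The genes whose levels ran most like those of the other members were named by the same correlation over 14 libraries and 9874 genes, in which differences between groups take part. Nr3c2 was nearest to the peptide transporter gene Slc15a1 (0.993) and to Plekha8 (0.979). Hsd11b2 was nearest to the phospholipase gene Pla2g10 (0.957) and to Cyp2c55 (0.949). Nr3c1 was nearest to the choline transporter gene Slc44a1 (0.936) and to Ctdsp2 (0.931). Klf9 was nearest to Mkks (0.937) and Ccdc117 (0.935), and Tsc22d3 to Akr1c19 (0.935) and Marcksl1-ps4 (0.931). The other target genes had less similar neighbours. These were H2afx (0.839) and Xbp1 (0.838) for Fkbp5, Ddit4 and Them4 (0.83) for Sgk1, and 2810403A07Rik (0.843) and Rbm5 (0.831) for Zbtb16.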

How the data were processed

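The authors deposited TPM per gene for 14 libraries in 1 table, and 2 tables of log2 fold changes with adjusted p-values from their own comparisons. Per the labels' protocols, libraries were made from total RNA depleted of ribosomal RNA with a stranded kit. Per the submitters' processing notes, the authors used STAR 2.4.0f, HTSeq 0.6.1p1, FastQC 0.11.2, DESeq2 1.14 and mm10; for annotation and strand setting, the value is not given in the sources used here. Of 46882 entries, 27 whose symbols had become dates were left out (at most 0.078% of TPM in a library).

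Each comparison was fitted with limma 3.58.1 (R 4.3.3, trend) on log2(TPM + 1), which understates changes of low genes. Genes needed 1 TPM in at least 4 libraries (P24 against P14) or 3 (others). Tests were two-sided, with Benjamini-Hochberg adjusted p-values over all genes tested and a threshold of 0.05. Hsd11b1, under the filter in 1 comparison, had an exact permutation test. The difference of effects was fitted on all 4 groups. Whole reads were recovered for all 31189 genes with a value (within 0.01 of a whole number) and used for depth and for voom. Columns of PBS and rmIl22 matched sample titles, and those of P14 and P24 matched their group only.

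The 9 members and all lists were chosen with earlier results of these data known. All members are named, with the called gene of largest rise and of largest fall in each list and the 2 genes most like each member. Other genes are named where said, and 1 gene that this rule names is not reported here. Alternatives were another pseudocount (0.1), no filter, median-scaled TPM, voom, a fit of all 14 libraries, each library left out, the replicate number as a block and a sex term, the last chosen after seeing the data. The fits were tested on simulated data.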

Additional observations from a re-analysis of the deposited data

Results flagged for a closer look

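The Sgk1 level in P14 library 2 was 124 TPM, while the other P14 libraries lay between 61.4 and 65.8 TPM. The gap to the nearest library was 0.93 of the group's range, above the critical value of Dixon’s test. This was 1 of 18 groups of 4 libraries examined, and chance alone flags about 1 in 20. Without this library the Sgk1 log2 fold change was 0.70 for P24 and 1.49 for PBS, each against P14.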

How the results depend on the processing

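Of 525 member values under alternatives, 456 kept their direction and their side of the threshold, 30 lost a call, 11 gained one and 28 changed direction, none of them a called value. Of the lost calls, 8 were of Hsd11b1 at P24, where a test with 1 library left out could not pass. The cause was not tested. The count of 389 genes called with rmIl22 was 98 with no filter, 1058 in the fit of all 14 libraries, 122 with a sex term and 4 to 1324 with a library left out (4 without PBS library 3, 1324 without rmIl22 library 2). The count of 640 with PBS against P14 was 125 with no filter, 1306 on median-scaled TPM, 1699 with voom, 390 in the fit of all 14 libraries and 322 to 860 with a library left out. The difference of effects gave 2386 to 5023 with a library left out, against 3734. With a sex term the direction changed for Hsd11b1 with rmIl22 (-0.632), Hsd11b2 (-0.042) and Zbtb16 (0.072) with PBS, and the Hsd11b2 difference of effects (0.152). The Nr3c1 difference was -0.071 on median-scaled TPM and -0.063 with voom. With a library left out, log2 values spanned 0 for Zbtb16 at P24 (-0.76 to 0.094), Hsd11b1 (-0.526 to 0.612) and Fkbp5 (-0.154 to 0.877) with rmIl22, and Nr3c1 (-0.023 to 0.155) and Hsd11b2 (-0.023 to 0.145) with PBS. They did so for the differences of effects of Hsd11b1 (-1.038 to 0.101), Hsd11b2 (-0.696 to 0.444), Zbtb16 (-0.496 to 0.358) and Klf9 (-0.324 to 0.265).

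With the replicate number as a block (replicate block), 280 genes were called with rmIl22, and no member's call changed. Same-numbered PBS and rmIl22 libraries had deviations correlated at -0.067, 0.333 and -0.049, so the numbers were not taken to pair them, and not every library was nearest to its own number. For P24 against P14 no block was fitted, because the column numbers are not the labels' replicate numbers. The lowest counts among the 9 genes were 35 reads for Hsd11b1 and 43 for Zbtb16. With 3 or 4 libraries a group the spread between libraries set the precision.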
